A study of Mus musculus with 3 samples.

Results

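The 10 genes described here write or remove DNA methylation, supply or withhold the cofactor that its removal needs, or are mutated together with those that do in clonal hematopoiesis, the expansion of blood cells from a mutated stem cell with age. Dnmt1, Dnmt3a, Dnmt3b, Tet1, Tet2, Tet3, Asxl1, Ppm1d, Idh1 and Idh2 were taken by name, with earlier results of these data known, from the 31298 genes counted on the mm10 mouse genome. In long-term hematopoietic stem cells (LT-HSCs) of 24-month-old mice, each of the 10 had an open annotated transcript start, as did 56.5% of the 21991 protein-coding genes, but for Dnmt1, Dnmt3a, Tet1 and Tet3 it was not the start of the gene record. In Dnmt3a the most open start lay 520 bp from it. Dnmt3a, the longest of the 10 genes, had the most open sites, with 8 over its gene. Of these, 6 lay more than 500 bp from any annotated start. None of the 10 had a log2 ratio past 0.32 in either direction between cells with high and low counts of any of 5 antibodies. The study ranked these antibodies for separating stem cell subtypes. Of all genes with at least 200 fragments over both groups, 1.69% to 4.89% passed 0.32. With shares that low, 0 of 10 does not set these genes apart. Keeping only the 363 of 3629 cells with at least 50 tags moved Idh1 past 0.32 for 1 antibody. In those cells most of the 10 genes had too few fragments to be counted. Of all genes with enough fragments there, 9.64% passed.

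DNA methyltransferases add a methyl group to cytosine in CpG dinucleotides. DNMT1 copies the pattern onto the new strand after replication, and DNMT3A and DNMT3B set it anew. The TET dioxygenases oxidize methylcytosine, the first step of its removal, and they need alpha-ketoglutarate, which the isocitrate dehydrogenases IDH1 and IDH2 produce and which their mutant forms convert to a competing metabolite. ASXL1 is a cofactor of the BAP1 histone deubiquitinase, and PPM1D is a phosphatase that turns off p53 signalling after DNA damage. In blood, DNMT3A, TET2, ASXL1 and PPM1D are among the genes most often mutated in clonal hematopoiesis, and loss of Dnmt3a or Tet2 in mouse stem cells is known to favor self-renewal. No mutation was looked for here, since chromatin fragments show only how accessible a gene was.

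The cells were sorted from c-Kit-enriched bone marrow of wild-type female C57BL/6J mice. Whether they came from 1 mouse or several is not stated in the labels or methods. They were measured by DOGMA-seq, which reads accessible chromatin (ATAC), RNA and oligo-tagged antibodies in the same cells. A single preparation of cells gave the 3 libraries, 1 for each readout. With 1 sample in each group, no spread between replicates could be measured and no test was run. Of the 4369 barcodes called as cells, 3724 also had antibody counts, and the 3629 with at least 10 tags were kept. Neither RNA levels of the genes nor young cells were analysed here, so expression and a change with age were not measured.

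The kept cells held 38554133 fragments on nuclear chromosomes, with a median of 10300 per cell and a range of 3859 to 45151. Levels are given as fragments per 1000000 nuclear fragments (fpm), and a promoter is the region within 1 kb of a start. All intervals are exact 95% intervals, Poisson for levels, binomial for shares and conditional binomial for ratios, and they cover counting error only. Transposase insertions are the fragment ends. They are given as insertions per 1000000 fragments (ipm) and without intervals, because both ends of 1 fragment often fall in the same window and are not independent. Of 10 HSC marker genes, 5 were above the median promoter level of protein-coding genes, 9.86 fpm, with Kit highest at 43.6 fpm. The 10 summed to 164 fpm, with a median of 10.7. Of 6 megakaryocyte genes 3 were above that level, with a sum of 62.8 fpm and a median of 10.9, and of 6 erythroid genes 1 was, with a sum of 31.2. The summed levels were 13.4 fpm over 6 myeloid genes, 6.15 over 6 macrophage genes and 6.07 over 6 T cell genes, none of them above it, and 18.2 over 5 B cell genes, of which 1 was. Marco, a macrophage receptor, was at 0. All these levels are at the start of the gene record, and they depend on that choice. At the annotated start with the most fragments the median of protein-coding genes was 12.3 fpm. Above it were 5 HSC, 4 megakaryocyte, 1 erythroid, 1 myeloid, 0 macrophage, 2 B cell and 2 T cell genes. Mecom, an HSC marker, had 0.493 fpm at the gene record and 56.8 at that start, and Lck, a T cell marker, 3.84 and 40.7. More positions covered by 3 or more fragments than a Poisson count allows, as when 1 barcode holds 2 cells, were found in 264 cells (7.27%). They were kept, and values without them are given where they bear on a result.

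RefSeq promoter sequences of these genes are shown first, because Dnmt1 had an open and a closed annotated start that differ in CpG content. The other windows show how the CpG content of open RefSeq starts varied. Each window runs from 250 bases before to 50 bases after a RefSeq start (GRCm38.p6, the assembly also named mm10), reads in the direction of transcription and has every CpG in capitals. RefSeq held 15 such windows for the 10 genes. The most open annotated starts of Dnmt3a (chr12:3806527), Dnmt3b (chr2:153649617) and Tet3 (chr6:83456392) lay outside these windows, so their sequence is not described.
Dnmt1, open start (chr9:20952574-20952873, minus strand): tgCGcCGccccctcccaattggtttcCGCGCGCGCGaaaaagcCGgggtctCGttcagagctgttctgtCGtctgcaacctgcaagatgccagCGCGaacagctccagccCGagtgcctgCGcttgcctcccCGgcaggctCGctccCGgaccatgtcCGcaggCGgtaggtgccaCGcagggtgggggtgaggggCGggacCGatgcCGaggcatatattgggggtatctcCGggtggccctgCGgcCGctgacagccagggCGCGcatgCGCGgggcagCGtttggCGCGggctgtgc
Dnmt1, start of the gene record (chr9:20959839-20960138, minus strand): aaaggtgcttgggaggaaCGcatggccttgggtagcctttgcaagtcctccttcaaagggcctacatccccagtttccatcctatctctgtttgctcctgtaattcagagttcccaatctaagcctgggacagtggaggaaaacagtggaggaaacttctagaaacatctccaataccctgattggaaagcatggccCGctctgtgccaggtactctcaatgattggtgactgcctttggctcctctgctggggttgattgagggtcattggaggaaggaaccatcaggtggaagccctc
Dnmt3a, start of the long form (chr12:3806730-3807029, plus strand): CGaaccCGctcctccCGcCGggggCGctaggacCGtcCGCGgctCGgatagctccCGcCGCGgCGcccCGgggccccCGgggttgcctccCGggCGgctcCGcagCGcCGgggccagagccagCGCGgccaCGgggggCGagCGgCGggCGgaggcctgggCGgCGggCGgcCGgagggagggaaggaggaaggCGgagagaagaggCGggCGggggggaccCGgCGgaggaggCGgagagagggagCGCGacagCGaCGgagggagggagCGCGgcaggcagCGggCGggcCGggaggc
Dnmt3a, internal start (chr12:3891494-3891793, plus strand): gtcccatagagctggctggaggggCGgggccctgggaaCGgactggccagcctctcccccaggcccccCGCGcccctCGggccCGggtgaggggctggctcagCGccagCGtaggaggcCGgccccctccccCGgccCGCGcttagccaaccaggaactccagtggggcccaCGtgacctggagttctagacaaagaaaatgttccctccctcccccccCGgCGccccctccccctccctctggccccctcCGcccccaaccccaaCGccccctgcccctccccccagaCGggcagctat
Tet1 (chr10:62887275-62887574, minus strand): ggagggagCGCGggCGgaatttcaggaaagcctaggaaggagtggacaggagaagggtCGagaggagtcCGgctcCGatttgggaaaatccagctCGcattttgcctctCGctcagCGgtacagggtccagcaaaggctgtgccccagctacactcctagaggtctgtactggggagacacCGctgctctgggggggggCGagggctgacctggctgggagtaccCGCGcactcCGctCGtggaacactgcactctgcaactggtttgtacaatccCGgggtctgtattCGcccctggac
Tet2 (chr3:133544341-133544640, minus strand): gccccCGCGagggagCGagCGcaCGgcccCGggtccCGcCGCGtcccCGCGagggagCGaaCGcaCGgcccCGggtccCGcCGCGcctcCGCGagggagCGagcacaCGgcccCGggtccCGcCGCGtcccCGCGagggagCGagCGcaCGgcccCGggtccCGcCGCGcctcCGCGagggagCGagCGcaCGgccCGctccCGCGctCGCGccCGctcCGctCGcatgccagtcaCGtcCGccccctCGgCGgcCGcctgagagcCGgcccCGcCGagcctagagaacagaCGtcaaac
Tet3, downstream start (chr6:83441629-83441928, minus strand): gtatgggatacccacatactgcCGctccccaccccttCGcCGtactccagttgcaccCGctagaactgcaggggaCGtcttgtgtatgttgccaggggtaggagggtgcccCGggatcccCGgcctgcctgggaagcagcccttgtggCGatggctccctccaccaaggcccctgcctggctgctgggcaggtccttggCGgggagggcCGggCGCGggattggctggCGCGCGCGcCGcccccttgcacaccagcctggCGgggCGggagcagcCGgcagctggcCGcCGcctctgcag
Asxl1 (chr2:153345580-153345879, plus strand): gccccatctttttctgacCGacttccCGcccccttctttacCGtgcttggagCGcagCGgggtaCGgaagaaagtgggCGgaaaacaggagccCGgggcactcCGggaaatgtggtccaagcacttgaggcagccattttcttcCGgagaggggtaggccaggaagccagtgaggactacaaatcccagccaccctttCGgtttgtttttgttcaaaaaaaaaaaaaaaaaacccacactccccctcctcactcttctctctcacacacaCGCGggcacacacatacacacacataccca
Ppm1d (chr11:85311004-85311303, plus strand): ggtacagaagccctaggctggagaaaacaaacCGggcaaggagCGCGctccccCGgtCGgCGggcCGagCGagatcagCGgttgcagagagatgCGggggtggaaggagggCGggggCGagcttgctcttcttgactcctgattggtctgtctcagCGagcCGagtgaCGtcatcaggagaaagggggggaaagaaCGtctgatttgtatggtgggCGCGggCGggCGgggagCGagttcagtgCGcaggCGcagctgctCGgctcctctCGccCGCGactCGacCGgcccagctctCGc

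CpG content differed between the open and the closed Dnmt1 window. The open window held 33 CpG, with a ratio of observed to expected CpG of 0.910, and took 32.8 ipm. The window at the start of the gene record held 2 CpG, with a ratio of 0.101, and took 3 insertions, or 0.0778 ipm. A RefSeq window between them held 12 CpG and took 26.7 ipm. Over all 32841 RefSeq windows the median was 7 CpG, and the median level rose with the CpG ratio, from 0.0519 ipm below a ratio of 0.2 to 26.9 at 0.8 and above.

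The most open RefSeq window of each of the 10 genes was rich in CpG. The count ran from 13 in Asxl1 to 57 in Tet2, with a CpG ratio of 0.571 to 1.17 over the 10. High CpG content was not matched by the highest level. Tet2 had the highest ratio and took 16.6 ipm, below the median of 26.9 for windows of that class. Asxl1 had 13 CpG, a ratio of 0.613 and 48.3 ipm, above the median of 15.5 for its class. Ppm1d was the most open of the 10 windows at 56.1 ipm.

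**Figure D1:**
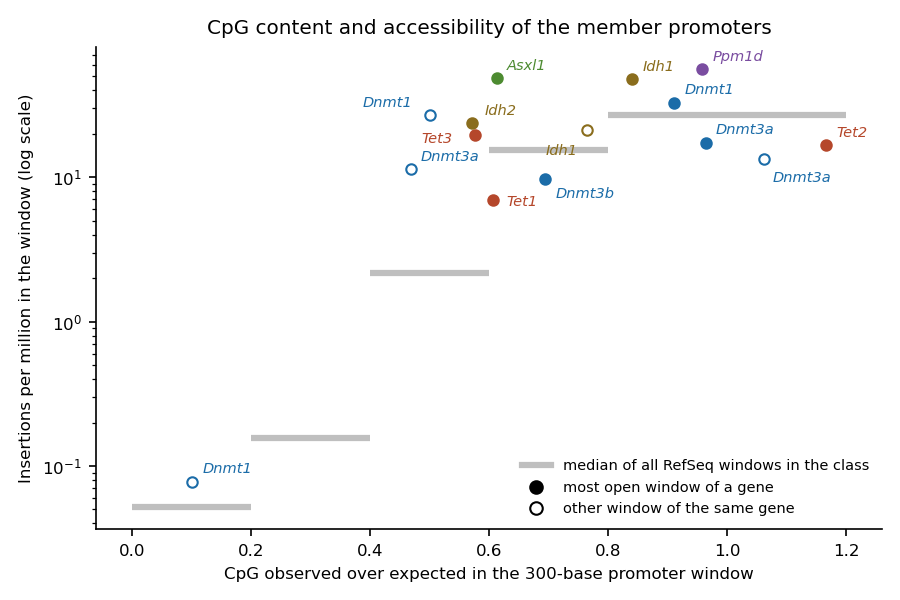
Transposase insertions per 1000000 fragments (ipm, log scale) against the ratio of observed to expected CpG in each of the 15 RefSeq promoter windows of the 10 genes, with grey bars for the median of all RefSeq windows in a class of that ratio. The Dnmt1 window at the start of the gene record sits at the lower left, at 0.0778 ipm, and the most open window of each gene lies at a CpG ratio of 0.571 or more.

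Each of the 10 most open windows held the GC box GGGCGG on 1 strand or the other, a motif found in 35.7% of all RefSeq windows. Ppm1d alone held the cyclic AMP response element TGACGTCA, found in 1.79% of all windows. The ETS motif CCGGAAGT, the RUNX motif TGTGGTT, the GATA motif AGATAA and the E-box CACGTG were in none of the 10, and in 3.89%, 5.27%, 11.2% and 7.15% of all windows. An E-box was present in the internal Dnmt3a window. Both strands were searched for exact letters, and a match describes the sequence only. The 10 windows had 54% to 82.3% GC, against a median of 52.7% over all windows. The shares over all windows were not matched for base content.

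At the start of the gene record, 7 of the 10 genes had a promoter level above the median of protein-coding genes, which was 9.86 fpm. By its definition, 50% of the 21991 protein-coding genes lie above that median. Asxl1 had the highest level at 55.1 fpm (52.8 to 57.5), at percentile 92.8 of protein-coding genes. Ppm1d followed at 48.3 (46.2 to 50.6) and Idh1 at 37.5 (35.6 to 39.5). Dnmt3a was at 33.3 (31.5 to 35.2). Tet2 at 26.9 (25.3 to 28.6) and Idh2 at 26.2 (24.6 to 27.9) did not differ beyond counting error, and Dnmt3b, at 19.3 (17.9 to 20.7), was below both. Tet3, Dnmt1 and Tet1 had 0.908, 0.804 and 0.493 fpm, and their intervals overlapped. With promoters of 500 bp on each side, the count above the median was again 7.

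The low values of Dnmt1, Tet1 and Tet3 belonged to the outermost annotated start. Taking for each gene the annotated start with the most fragments within 1 kb, and doing the same for every other gene, all 10 were above the median of 12.3 fpm. Because that start is chosen for its count, these levels describe where the gene was open and carry no test that it was. Dnmt3a then had the second highest level of the 10 at 52.4 fpm (percentile 90.6), after Asxl1 at 55.2. Idh1 had 51.1, Dnmt1 had 49.3 and Tet3 had 39.3 fpm. Tet1 remained the lowest at 16.4 fpm (percentile 55.9).

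**Figure D2:**
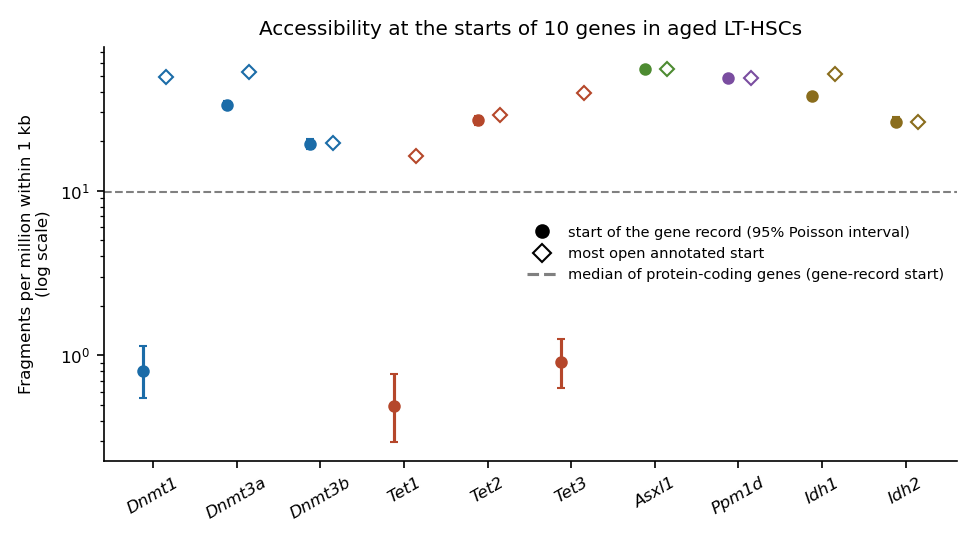
Promoter level in fpm, within 1 kb of a start (log scale), for each gene, at the start of the gene record (filled circles with 95% Poisson intervals) and at the annotated start with the most fragments (open diamonds); the dashed line is the median of protein-coding genes at the gene-record start, 9.86. Dnmt1, Tet1 and Tet3 lie below 1 at the gene record and between 16.4 and 49.3 at their most open start.

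Among the writers, Dnmt1 was open at a single place inside the gene. At chr9:20952845, 7043 bp inside the gene record, 4 annotated transcripts start, and the 500 bp centred there took 72.0 ipm. The start of the gene record, used by 1 annotated transcript, took 0.156 ipm. The open site of 1 kb around the internal start (chr9:20952389-20953388) held 1826 fragments and was seen in 37.6% of cells. The other bin that reached the level of an open site, at 6.90 ipm, lay 1.5 to 2 kb upstream of the gene record and was exactly at the threshold.

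Dnmt3a, a de novo methyltransferase gene, had the most open sites of the 10. An open site was defined as adjacent 500 bp bins that each took at least 266 insertions, the median for the 500 bp around the starts of protein-coding genes. By that level, 18 of 221 bins of Dnmt3a were open (8.14%) and held 65.1% of its insertions. Dnmt3a is also the longest of the 10 genes, at 108 kb. Idh1 had a slightly larger share of its bins open, 8.33%. The first site covered the starts of the long form (chr12:3806007-3808506), with 2191 fragments in 42.1% of cells. The internal start at chr12:3891728, from which the shorter isoform is read, took 14.9 ipm in the 500 bp around it, against 44.5 at the most open start in the first site and 4.28 at the start of the gene record.

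The most open of the 6 sites of Dnmt3a away from annotated starts was intronic, 64.5 to 66.0 kb into the gene (chr12:3870507-3872006). It took 66.0 ipm over 1.5 kb and was seen in 28.6% of cells. A second intronic site at 49.5 to 50.5 kb (chr12:3855507-3856506) took 47.7 ipm, in 21.6% of cells. Another site, at 28.0 to 29.5 kb (chr12:3834007-3835506), overlapped annotated exons and took 46.4 ipm, in 20.6% of cells. The remaining 3 took up to 14.4 ipm, the highest at 86500 to 87000 bp, close to the internal start at 85721 bp. No annotation of enhancers was used, and which gene these sites act on was not tested.

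Dnmt3b, the other de novo methyltransferase, was open only at its start (chr2:153648950-153649949), at 30.9 ipm. Of its promoter fragments, 91.8% also lay in the promoter of the antisense gene Dnmt3bos, so the levels of the pair cannot be told apart.

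**Figure D3:**
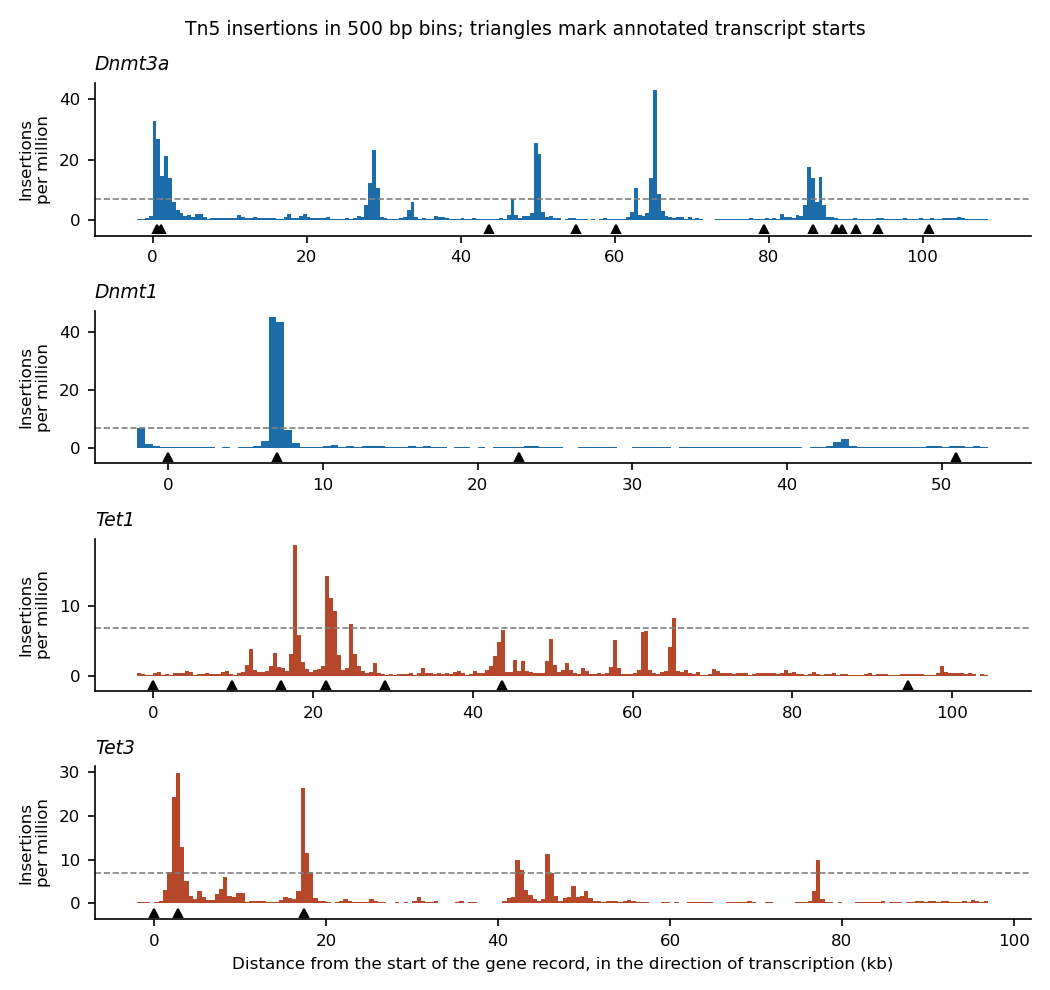
Transposase insertions per 1000000 fragments (ipm) in 500 bp bins along Dnmt3a, Dnmt1, Tet1 and Tet3, by distance from the start of the gene record in the direction of transcription (kb), with triangles at annotated transcript starts and a dashed line at the level of an open site, 6.90. Dnmt3a shows tall bins away from triangles, Dnmt1 a single tall site at its internal start, and Tet1 and Tet3 almost no signal at their first triangle.

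Of the erasers, Tet2 had a compact pattern and Tet1 and Tet3 did not. Tet2, the TET gene most often mutated in clonal hematopoiesis, had 1 open site (chr3:133544140-133545139) of 42.6 ipm, seen in 21.5% of cells. The 2 of its annotated starts that were open lie 749 bp apart and took 25.3 ipm at the inner and 14.1 at the outer start. All of its promoter fragments (100%) were shared with the antisense gene Gm42567, whose start is 42 bp away.

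Tet3 had 5 open sites, 2 of them at annotated starts 2692 and 17452 bp into the gene record. These starts took 34.7 and 28.5 ipm, whereas the outermost start took 0.182. A further 3 sites, all intronic, took 9.99 to 18.2 ipm. Tet1 had 4 open sites, and its most open annotated start, 21672 bp into the record, took 11.98 ipm. The most open 500 bp of Tet1 was an intronic bin at 17.5 to 18.0 kb (chr10:62890997-62891496), with 18.8 ipm in 12.2% of cells. A non-coding transcript of Tet1 starts 43692 bp into the record and took 7.86 ipm in the 500 bp around it. That is above the level of an open site, 6.90 ipm, but no fixed bin there reached it, so it is not among the 4. Counts of open sites thus depend on where the bins fall.

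Asxl1 and Ppm1d each had 1 open site, which covered the start of the gene record. It took 102 ipm in Asxl1 (chr2:153345329-153346828) and 93.7 in Ppm1d (chr11:85310244-85312243), and was seen in 41.7% and 37.8% of cells. Neither shared promoter fragments with a neighbour, and 74.6% and 74.9% of the fragments over gene and 2 kb upstream lay in the promoter.

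Idh1, which encodes the cytosolic isocitrate dehydrogenase, was open at 2 starts, and Idh2, which encodes the mitochondrial one, at 1. The outer Idh1 start took 55.1 ipm and the inner one, 7319 bp downstream, took 30.8. The start of the divergent gene Pikfyve, a lipid kinase gene, lies 183 bp from the outer start, and 99.7% of the promoter fragments of Idh1 were shared with it. Idh2 took 49.8 ipm over its open site (chr7:80114393-80115892), with no neighbour sharing fragments.

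**Figure D4:**
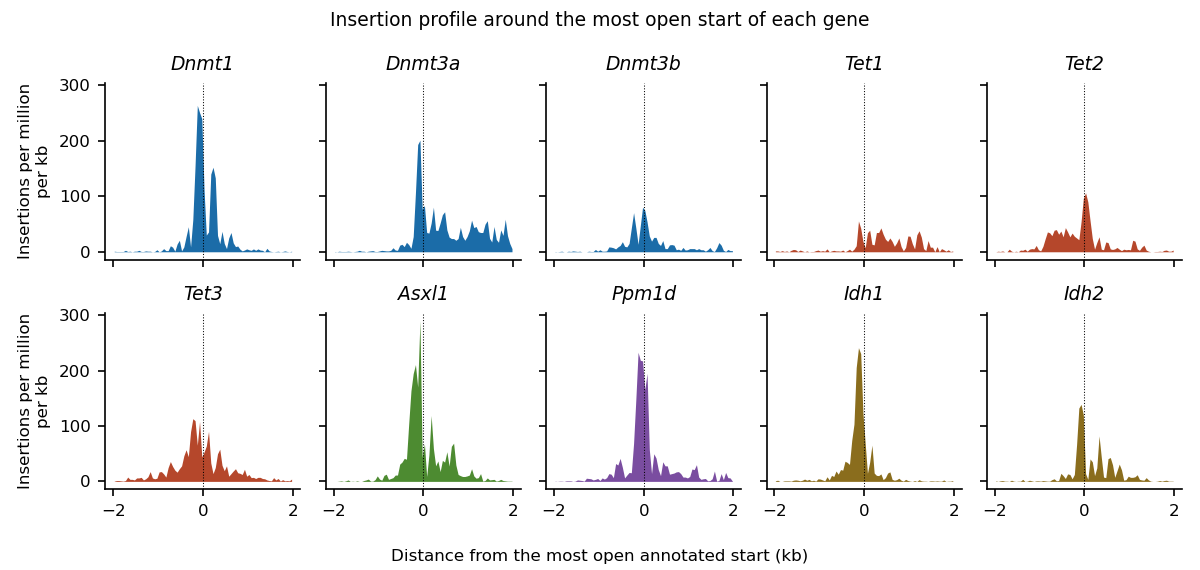
Insertions per 1000000 fragments (ipm) per kb in the 2 kb on each side of the annotated start with the most insertions within 250 bp, for each gene, on 1 common axis. Asxl1, Dnmt1, Idh1 and Ppm1d have tall narrow peaks next to the start, and Tet1 and Dnmt3b have the lowest peaks.

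Fragment length differed between these starts. Fragments under 150 bp, shorter than the DNA wrapped on a nucleosome and its linker, made up 33.2% of all fragments of the kept cells. Within 1 kb of the start with the most insertions, their share was 54.4% in Idh1 (51.8 to 57.0), 49.4% in Ppm1d, 49.0% in Dnmt1 and 47.9% in Asxl1. It was 40.5% in Dnmt3a, 39.0% in Idh2, 38.5% in Tet2, 35.5% in Tet3 and 31.9% in Dnmt3b. Tet1 had the lowest share at 26.6% (23.2 to 30.3), below the share over all fragments. Elsewhere in the gene, short fragments were 34.1% in Dnmt3a and 31.1% in Tet3, the highest among the 10, and 14.8% in Tet2.

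A promoter fragment was seen in 42.1% of cells for Asxl1 (40.5 to 43.7), 37.8% for Ppm1d, 31.3% for Idh1, 28.3% for Dnmt3a, 23.0% for Tet2, 22.3% for Idh2 and 16.9% for Dnmt3b. For Tet3, Dnmt1 and Tet1, at the start of the gene record, the shares were 0.937%, 0.854% and 0.441%. Random placement of the same fragments over cells of these depths would give 43.3% for Asxl1 and 29.4% for Dnmt3a, slightly above the observed shares. When cells were thinned to 6000 fragments, which left out 242 cells, the shares fell to 27.6% for Asxl1 and 17.4% for Dnmt3a. The shares thus moved with depth, and a cell without a fragment cannot be called closed.

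Over the gene and 2 kb upstream, Dnmt3a held 9875 fragments and was covered in 89.4% of cells. Per kb of this window it had 2.32 fpm (2.27 to 2.37), after Idh1 at 3.26 (3.16 to 3.37). Of the Idh1 fragments 39.6% also lay in the window of Pikfyve, against 0.699% shared with an antisense gene for Dnmt3a. Without shared fragments and the part of the window that holds them, Idh1 was at 2.26 and Dnmt3a at 2.41 fpm per kb, so the order of the pair turned. Ppm1d had 1.71, Idh2 1.55, Tet3 1.47, Dnmt1 1.31, Asxl1 1.23, Tet1 1.06 and Dnmt3b 0.834. Tet2 had the lowest level per kb at 0.537 (0.512 to 0.563), below the median of 0.819 for protein-coding genes. Antisense genes shared 68.1% of the window fragments of Tet2 and 66.0% of those of Dnmt3b, and the ratios between cell groups given for Tet2, Dnmt3b and Idh1 include these shared fragments. The order by window thus differed from the order by promoter, in which Asxl1 was first and Dnmt3a followed Ppm1d and Idh1.

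The other genes of DNA methylation and of clonal hematopoiesis served as context. Of 31 further genes of DNA methylation, 22 were above the median promoter level at the start of the gene record and 26 at their most open start. Mbd3, a subunit of the NuRD complex, had 104 fpm, Pcna, the replication clamp, 68.1, and Gadd45b, a stress-induced gene linked to demethylation, 66.7. Among the lowest were Trim28, a co-repressor gene, with 0.156 fpm and Usp7, a deubiquitinase gene, with 0.545. Their most open annotated starts had 60.9 and 34.2 fpm, so they shared with Dnmt1, Tet1 and Tet3 a closed outermost start.

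Of 45 further genes mutated in clonal hematopoiesis and related myeloid disease, 41 were above the median. The median of this list was 43.4 fpm, against 26.5 for the 10 genes and 26.5 for the 31 genes of DNA methylation. The splicing factor gene Srsf2 had 102 fpm, the chaperone gene Calr 82.8 and Ctcf, an insulator protein gene, 68.2. Gnas, a G protein subunit gene with many starts, had 3.42 fpm at the start of the gene record and 53.4 at its most open annotated start. Setdb1, a histone methyltransferase gene, had 7.96 at both.

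The study isolated platelet-biased HSCs (PLT) as high for CD61 and CD274 and low for CD357 and CD27, and multilineage HSCs (MUL) as the reverse. P2X7R was ranked beside them. Cells were split for each of these antibodies into the highest and lowest 25%, as near as tied counts allow, and compared by fragments in a window from 2 kb upstream to the gene's end. Ratios are given as log2 of high over low, and a gene was called when its ratio passed 0.32 in either direction with at least 200 fragments over both groups. The cells with high counts of 1 antibody also had more tags in all, and the splits reuse the same cells.

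CD274, the checkpoint ligand PD-L1, split the cells into 937 with at least 27 tags of it and 877 with at most 12. All 10 genes had enough fragments and 0 passed the threshold, where 4.89% of 17473 genes did. Asxl1 had 71.1 fpm in CD274-high and 81.3 in CD274-low cells, a log2 ratio of -0.19 (-0.34 to -0.04). Over 4 bins from low to high CD274 count, its level was 79.7, 72.9, 71.7 and 70.2 fpm. Tet1 had 118 fpm in high and 107 in low cells, a log2 ratio of 0.14 (0.02 to 0.26). The intervals of the other 8 held 0. Dnmt3a had 265 fpm in high and 254 in low cells, and Tet2 43.5 and 45.1.

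The CD274-high group held 13.0% of cells with an excess of overlapping fragments, against 6.39% in the low group. Without these cells the log2 ratio was -0.19 (-0.35 to -0.03) for Asxl1 and 0.11 (-0.02 to 0.25) for Tet1. Median depth was 10311 fragments in the high and 10486 in the low group. Among the 363 cells with at least 50 tags in all, the ratio of Asxl1 was 0.08 (-0.37 to 0.54) and that of Tet1 was -0.25 (-0.60 to 0.11). In the same cells 1 of 4 genes with enough fragments, Idh1, passed the threshold at -0.43, where 9.64% of all genes with enough fragments did.

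CD61, the integrin beta chain of platelets, gave 779 cells with at least 6 tags and 727 with at most 1. Again 0 of 10 passed, against 3.65% of 16690 genes, and all 10 intervals held 0. The ratios ran from -0.13 for Idh2 (35.6 fpm in high and 38.8 in low cells) to 0.09 for Tet1 (119 and 111). Dnmt3a had 259 and 249 fpm, and Asxl1 had 77.9 and 74.1 (0.07, -0.09 to 0.24). Whether the ratios of Asxl1 with CD61 and with CD274 differ was not tested.

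CD357, the receptor GITR, gave 968 cells with at least 5 tags and 1200 with at most 1. Of the 10, 0 passed, against 2.53% of 18139 genes. Idh2 had 37.1 fpm in high and 32.2 in low cells, a log2 ratio of 0.20 (0.00057 to 0.41). Tet1 had 109 and 118 fpm, at -0.11 (-0.23 to -0.0032), the opposite sign from CD274. Without cells with an excess of overlaps, which were 12.1% of the high and 4.83% of the low group, Idh2 was at 0.28 (0.06 to 0.50) and Tet1 at -0.14 (-0.26 to -0.01).

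CD27, a receptor of the tumor necrosis factor family, gave 825 cells with at least 2 tags and 1578 with none. None of the 10 passed, against 2.12% of 18496 genes. Dnmt1 had the largest ratio, with 67.0 fpm in high and 73.8 in low cells (-0.14, -0.28 to 0.0024), and Ppm1d had 67.4 and 62.8 (0.10, -0.04 to 0.25). P2X7R, an ATP-gated channel, split the cells into 1325 with a tag and 2304 without. Of the 10, 0 passed, against 1.69% of 19712 genes. Idh1 had 93.3 fpm with and 99.9 without a tag (-0.10, -0.20 to -0.0014), and Dnmt3b had 31.8 and 34.7 (-0.13, -0.29 to 0.04).

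The gates that combine 4 antibodies were small, with 342 cells in the PLT gate and 61 in the MUL gate. The PLT gate took cells with CD61 and CD274 counts above the median and CD357 and CD27 counts at or below it. The MUL gate took the opposite. They rest on tag counts alone, and whether they hold the subtypes that the study sorted was not tested. Dnmt3b, Tet2 and Idh2 had fewer than 200 fragments over both gates. Of the other 7, 0 passed, against 20.1% of 7052 genes. Dnmt3a had 255 fpm in the PLT gate and 281 in the MUL gate (-0.14, -0.38 to 0.10). Tet1 had 127 and 103 (0.30, -0.08 to 0.71) and Asxl1 72.8 and 63.2 (0.19, -0.29 to 0.73). The intervals of all 7 held 0, and each also reached past 0.32 in size in at least 1 direction, so they leave room for a change of that size. For Dnmt3b the values were 31.6 fpm over 112 fragments and 48.2 over 29 (-0.63, -1.21 to 0.03). Cells with an excess of overlaps were 7.02% of the PLT and 1.64% of the MUL gate, and without them and with the gates set anew Tet1 passed at 0.38 (0.04 to 0.75), where 12.8% of all genes with enough fragments did.

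**Figure D5:**
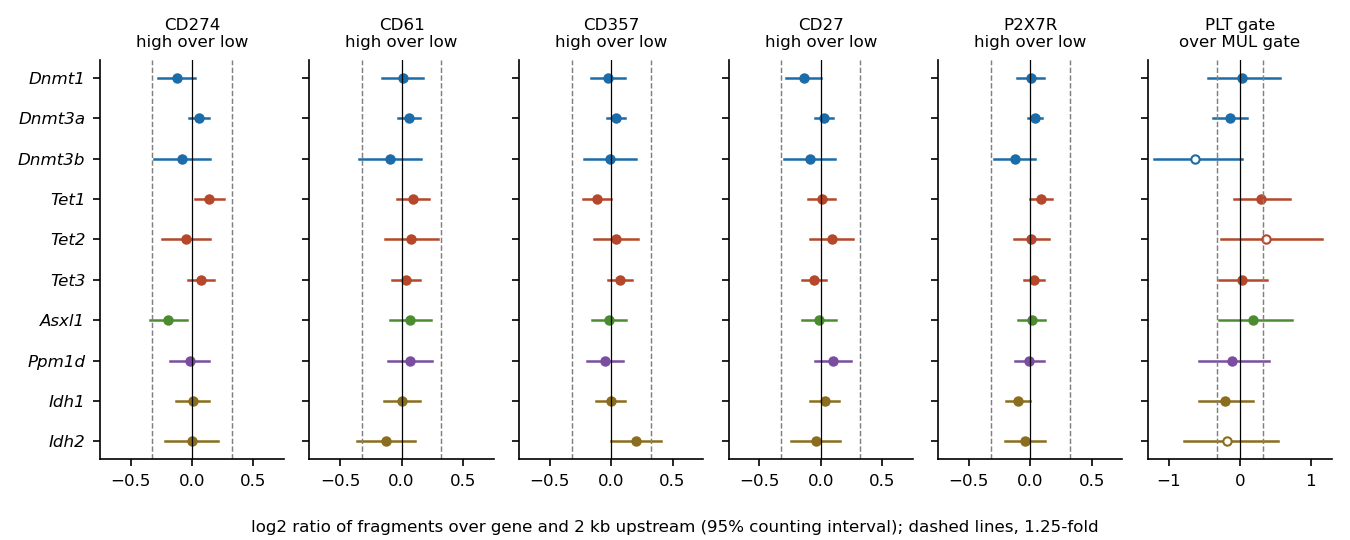
Log2 ratios of fragments over each gene and 2 kb upstream (points, with 95% counting intervals) for high over low cells of 5 antibodies and for the PLT over the MUL gate, whose axis is wider; dashed lines mark the threshold of 0.32 and open points are genes with fewer than 200 fragments. All filled points lie between the dashed lines, and Asxl1 in CD274 and Idh2 in CD357 are the farthest from 0 outside the gates.

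The remaining 7 antibodies gave ratios for the 10 genes between -0.44 and 0.35. The 2 values past the threshold, both of Ppm1d, were at CD163, with 71 tagged cells, and at CD183, with 225 tagged cells. Of all genes with enough fragments, 31.5% passed at CD163 and 11.5% at CD183. At CD183, Ppm1d had 80.8 fpm with and 63.5 without a tag (0.35, 0.13 to 0.56), and at CD163 it had 47.1 and 64.9 (-0.44, -0.99 to 0.02). Over all 12 antibodies the ratio of Dnmt3a, which had the most fragments of the 10 and so the least counting error, stayed between -0.0021 and 0.11.

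The same comparison was made for single open sites. The open sites of the 10 genes comprised 58 bins of 500 bp, with a median of 560 insertions, and 48533 bins of the genome reached the same level, with a median of 502. Between CD274-high and CD274-low cells, 2 of 46 member bins with at least 200 insertions passed the threshold (4.35%), against 16.8% of all such bins. The counts were 3 of 36 (8.33%) against 13.1% for CD61, 3 of 48 (6.25%) against 11.7% for CD27 and 2 of 58 (3.45%) against 7.71% for P2X7R. For CD357 they were 7 of 48 (14.6%) against 11.9%, 3 of the 7 being bins of Dnmt3a. In the gates 1 of 4 passed, against 34.4%.

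Over the 26 open sites and the 5 antibodies, 15 of 130 intervals left out 0 (11.5%), 10 above it and 5 below. Over the 27963 open sites of the genome the share was 7.83%, but member sites held more fragments, with a median of 429.5 against 217 over both CD274 groups, and more fragments give narrower intervals. Of the 26 sites, 4 had such an interval in CD274 (12.3% of the genome's open sites), 1 in CD61 (7.27%), 4 in CD357 (6.76%), 5 in CD27 (6.02%), 1 in P2X7R (6.81%) and 0 in the gates (4.09%). The largest ratios in size among these 15 were in CD274, at an intronic site of Tet1 65.0 kb into the gene record, with 0.96 (0.32 to 1.66) over 63 and 29 fragments, and at a site of Tet3 at 45.5 kb, with 0.81 (0.36 to 1.29) over 117 and 60 fragments. Both rest on fewer than 200 fragments. The Tet1 site was also higher in CD27-high cells, at 0.70 (0.16 to 1.24) over 58 and 64 fragments. Its intervals in CD61, CD357 and P2X7R held 0. The start region of Dnmt3a, scaled for depth, had log2 ratios of 0.21 (0.04 to 0.38) over 636 and 498 fragments in CD274, 0.28 (0.09 to 0.47) over 530 and 378 in CD61, and 0.18 (0.03 to 0.34) over 666 and 687 in CD357. In CD27 it was at 0.02 (-0.13 to 0.18) and in P2X7R at 0.04 (-0.09 to 0.17). Between the PLT and MUL gates the ratio was -0.12 (-0.60 to 0.44) over 209 and 38 fragments. These sites were singled out after their values were seen. Median tags in all were 46 and 17 in CD274-high and CD274-low cells, 36 and 22 for CD61, 36 and 25 for CD357, and 33 and 27 for CD27. Whether total tag count, which moves with each of these splits, contributes to the ratios of these sites was not tested.

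Among the listed genes of DNA methylation and clonal hematopoiesis, at most 2 of a list passed the threshold in any of the 5 splits. In CD274, 2 of 45 genes of clonal hematopoiesis were lower past the threshold. The largest ratio in size belonged to Ezh2, the catalytic subunit of a Polycomb repressive complex, at -0.38 (-0.54 to -0.22), but it was at 0.065 among cells with at least 50 tags. In CD27, 2 of 31 genes of DNA methylation passed, Apobec1 at 0.39 (0.16 to 0.62) and Dnmt3l, a cofactor gene of the de novo enzymes, at -0.33 (-0.65 to -0.02). In CD61, CD357 and P2X7R no listed gene passed. The largest there were Zbtb33 at -0.29 and Cxxc4 at 0.29 with CD61, Wt1 at -0.29 and Smug1 at -0.22 with CD357, and Zrsr2 at -0.22 and Zbtb33 at -0.20 with P2X7R. Between the gates, 3 of 17 genes of DNA methylation and 5 of 35 of clonal hematopoiesis passed, among them Npm1 at 0.50.

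Markers of other cell types were compared in the same splits. In CD274 the median ratio was 0.03 over 9 HSC markers with enough fragments and 0.0030 over 4 megakaryocyte markers, and 1 of 3 erythroid markers was lower and 1 of 2 myeloid markers higher past the threshold. In CD61, 2 of 4 megakaryocyte and 1 of 2 erythroid markers were lower past it. In CD357, 1 of 3 erythroid markers was higher, and in CD27, 1 of 3 was lower. Of the macrophage, B cell and T cell markers, 2 or 3 of each list had enough fragments in the 5 splits, and none passed. In P2X7R, 1 of 4 myeloid markers was higher past the threshold, at 0.42. Over all genes with enough fragments, 4.89% passed in CD274, 3.65% in CD61, 2.53% in CD357, 2.12% in CD27 and 1.69% in P2X7R. Each list held few genes with enough fragments, and whether its counts differ from these shares was not tested. The part of the markers in the values of the 10 genes was not tested.

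Across single cells, and after removal of depth, rank correlations between the 7 genes with at least 2000 fragments ran from -0.02 to 0.04 over 3629 cells, with a median of 0.01 over 21 pairs. The genes on other chromosomes most like Dnmt3a were Bcl2l1 (0.08) and Frmd8os (0.07), those most like Tet3 were Evl (0.08) and Mki67 (0.07), and those most like Tet1 were Jak2 (0.07) and Slc43a2 (0.07), the highest of 6039 to 6126 genes compared. All points share 1 library, and values this small in sparse counts are given as a description only.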

How the data were processed

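The authors processed ATAC and RNA reads with Cell Ranger ARC 2.0.2 against mm10, which collapses duplicates, shifts fragment ends for the transposase and calls cells, and counted antibody tags with CITE-seq-Count (version not stated). The deposited values are raw counts of fragments, RNA UMIs and tags per barcode.

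Cells with antibody counts and at least 10 tags were kept. Fragments were counted in GENCODE M21 genes with 2 kb upstream and within 1 kb of each start, and scaled by nuclear fragments. Starts of RefSeq promoters and their sequences came from the GRCm38.p6 table, where all 10 genes matched. Ratios had 0.5 added to each count. With 1 sample a group there was no test. The comparisons of open bins and sites, the levels without shared fragments and the fragment lengths were added after seeing the data. On Poisson counts simulated for 5000 genes the ratio step was tested before use. Genes named were all 10 members, the 3 highest and 3 lowest promoter levels of both lists, the 2 listed genes with the largest ratio in each comparison, and the 2 most like each of Dnmt3a, Tet3 and Tet1. Some listed genes that this rule names are not reported here. Members and lists were chosen with earlier results of these data known. Doublets were not removed. Alternatives changed the window, start, scaling, split, cells and minimum. Software was Python 3.11.15, numpy 2.4.6, scipy 1.17.1 and pandas 2.3.3.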

Additional observations from a re-analysis of the deposited data

Results flagged for a closer look

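The promoters of 7 of the 10 genes also held 17 or more fragments outside the cells analysed, while those of Dnmt1, Tet1 and Tet3, at the start of the gene record, held 0 to 2. In cells called by the pipeline but without antibody counts, the 10 promoters together held 348 fragments, or 271 fpm (95% interval 243 to 301), against 249 (244 to 254) in the kept cells, and a count of 3 would be 2.34 fpm. In barcodes not called as cells they held 542 fragments, or 194 fpm (178 to 211), against a limit of 1.07. Both were singled out because they lie outside the comparisons above. Tet2 had 13.2 fpm (7.71 to 21.2) in the called cells without antibody counts and 26.9 in the kept cells, and Dnmt3a had 45.2 (34.3 to 58.4) and 33.3. No group of 4 or more samples existed, and none was checked for a sample lying apart.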

How the results depend on the processing

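The number of genes above the median promoter level was 7 under 8 of the 9 alternatives tried (promoters of 500 bp, insertions, at least 50 tags, all barcodes of the antibody table, leaving out cells with excess overlaps or the deepest 5%, genes with at least 20 promoter fragments, and fragments with at least 2 read pairs) and 10 with the most open annotated start. The count past a log2 ratio of 0.32 was 0 under all alternatives for CD61, CD357, CD27 and P2X7R. It rose to 1 for CD274 with at least 50 tags (Idh1 at -0.43), where 9.64% of all genes with enough fragments passed. Except with no minimum, only members with at least 200 fragments over both groups were counted. With promoters this left out Dnmt1, Tet1 and Tet3, and with at least 50 tags 4 of 10 were counted for CD274. For the gates it rose to 1 without cells with excess overlaps and without the deepest 5% of cells (Tet1 at 0.38 and 0.43 in these), where the gates held 247 and 89 or 256 and 89 cells, and to 2 with insertions or no minimum (Dnmt3b and Tet2). The shares of genes with enough fragments passing in these 4 were 12.8%, 13.3%, 28.9% and 55.9%, the last over all 31298 genes. With at least 50 tags no gene reached 200 fragments over both gates, so no count could be given. Thinned to 6000 fragments, the share of cells with a promoter fragment was 17.4% for Dnmt3a, 9.89% for Dnmt3b, 14.6% for Tet2, 0.620% for Tet3, 27.6% for Asxl1, 24.5% for Ppm1d, 19.8% for Idh1 and 13.7% for Idh2, by construction since fewer fragments were counted. Of the ratios of named genes, the 1 that changed sign from past 0.32 was Ezh2 in CD274, at 0.065 with at least 50 tags, and the cause was not tested. With at least 50 tags 40 of 72 ratios lay outside the original interval, and with promoters 23 of 71. No paired analysis was possible because each group held 1 sample. The MUL gate held 61 cells, and the low starts of Dnmt1, Tet1 and Tet3 rest on 19 to 35 fragments.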
